A study of Saccharomyces cerevisiae with 25 samples.

Results

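The 31 genes for the subunits of RNA polymerases I, II and III were followed through phosphate starvation in budding yeast. Members were the genes with the fixed subunit names among the 6650 named genes of the deposited matrix, and all 31 were found. By enzyme, 7 belong to RNA polymerase I alone, 2 to I and III, 5 to all 3 enzymes, 7 to II alone and 10 to III alone. The 24 libraries from medium without phosphate, taken at 15 to 360 min in steps of 15 min, are set against 1 library from high phosphate medium at 0 min. All 25 came from BY4741, a haploid laboratory strain of mating type a, labelled wild type, in which, in every sample, the marker genes HIS3, LEU2, MET17 and URA3 are deleted. Each time has 1 library of total RNA from what the labels describe as 1 course, so 4 neighbouring times were treated as a window (the first spans 15 to 60 min and the last 315 to 360 min). All p-values therefore measure only the spread between neighbouring samples of that course, with no spread between separate cultures.

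RNA polymerase I transcribes the repeated gene for the large ribosomal RNA precursor, RNA polymerase III makes 5S rRNA, transfer RNA and other small RNAs, and RNA polymerase II makes messenger RNA. The enzymes share a set of small subunits and otherwise carry their own versions of the same parts: a largest and a second largest catalytic subunit, a pair that forms the assembly platform, a stalk of 2 proteins and a small zinc-ribbon subunit. In yeast, genes for polymerases I and III are known as part of the growth-related set that also holds the ribosome biogenesis factors, whose promoters carry the PAC element (named for polymerase A and C, the older names of I and III) and the ribosomal RNA processing element, RRPE.

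Values are log2 RPM, the log2 of reads scaled to a library sum of 1000000. Depth recovered from the values was lowest at 120 min (209394 reads), highest at 75 min (1737019) and 804867 at the median. A gene below 10 reads has no value and is called not listed, and 27 of the 31 members were listed in all 25 libraries. RPA12, RPO21, RET1 and RPC53 were not listed in the shallow 120 min library. The share of reads on ribosomal protein genes was 6.94% at 180 min, against 27.2% at 75 min and 31.8% in high phosphate, and the median of all genes shifted by 0.20 log2 units between the windows of 135 to 180 and 75 to 120 min. HIS3, LEU2, MET17 and URA3 were listed in none of the 25 libraries, and the 6 markers of mating type a were listed in all. Summed, the markers of mating type a reached 11.57 to 12.39 log2 RPM without phosphate and 11.31 in high phosphate. The 4 markers of mating type alpha reached 5.06 to 6.38 without phosphate and 5.22 in high phosphate, with MF(ALPHA)2 listed in none. In such bulk samples, fewer cells of a kind and less RNA per cell cannot be told apart.

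The 300 bases before each start codon were read from the R64 genome, and the PAC core GATGAG was sought on both strands. It was present for 16 of the 31 members, against 1148 of all 6001 protein-coding genes (19.1%). By enzyme it was found for 6 of 7 genes of polymerase I alone, both genes shared by I and III, 8 of 10 genes of polymerase III alone, 0 of 7 genes of polymerase II alone and 0 of 5 genes shared by all 3. The RRPE core AAAATTTT, which reads the same on either strand, was present for 16 of the 31 members and 565 of the 6001 genes (9.42%). Both cores were present for 12 of the 31 members, against 267 of the 6001 genes (4.45%). These matches describe the letters of the window and are not evidence of binding. The stretches below, from genes whose levels are described next, hold the PAC cores and any RRPE core close by. They are on the strand of each gene, with matches in capitals and CTCATC being the PAC core read on the other strand. RRPE cores further off are not printed. These are the RRPE cores of RPA14 and RPC82, 118 and 18 bases before the start codon. Also not printed are a further one of RPA190 (215 bases) and of RPA34 (214 bases). Positions are those of build R64.
RPA190 (chrXV:960791-960845, plus strand): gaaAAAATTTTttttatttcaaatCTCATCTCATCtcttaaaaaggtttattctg
RPA135 (chrXVI:581275-581334, minus strand): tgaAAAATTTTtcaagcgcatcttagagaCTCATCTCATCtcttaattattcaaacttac
RPA49 (chrXIV:182713-182758, minus strand): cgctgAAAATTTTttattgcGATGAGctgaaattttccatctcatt
RPA43 (chrXV:960328-960384, minus strand): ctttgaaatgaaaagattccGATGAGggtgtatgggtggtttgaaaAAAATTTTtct
RPA34 (chrX:140307-140352, plus strand): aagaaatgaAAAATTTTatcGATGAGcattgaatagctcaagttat
RPA14 (chrIV:769446-769491, plus strand): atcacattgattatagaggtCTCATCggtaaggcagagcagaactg
RPC40 (chrXVI:746893-746945, minus strand): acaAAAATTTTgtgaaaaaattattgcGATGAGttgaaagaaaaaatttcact
RPC19 (chrXIV:412624-412669, plus strand): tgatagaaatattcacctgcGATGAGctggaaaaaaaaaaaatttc
RET1 (chrXV:733561-733606, minus strand): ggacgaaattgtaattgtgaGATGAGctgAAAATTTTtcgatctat
RPC31 (chrXIV:348579-348624, minus strand): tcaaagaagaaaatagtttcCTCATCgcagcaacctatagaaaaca
RPC25 (chrXI:176650-176695, minus strand): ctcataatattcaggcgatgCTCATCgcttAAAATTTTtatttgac
RPC82 (chrXVI:919138-919183, minus strand): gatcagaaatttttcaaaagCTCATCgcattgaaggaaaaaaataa

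In RPA190 and RPA135, the genes of the largest and the second largest subunit of polymerase I, 2 overlapping copies of the reversed PAC core stood together, 167 and 162 bases before the start codon of RPA190 and 104 and 99 bases before that of RPA135. RPA12 was the 1 gene of polymerase I alone with no match to either core in its window. RPC17 and RPC11 were those of polymerase III alone without the PAC core. RPA43 and RPA190 lie next to each other on chromosome XV and are read in opposite directions, each with its own PAC core.

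**Figure D1:**
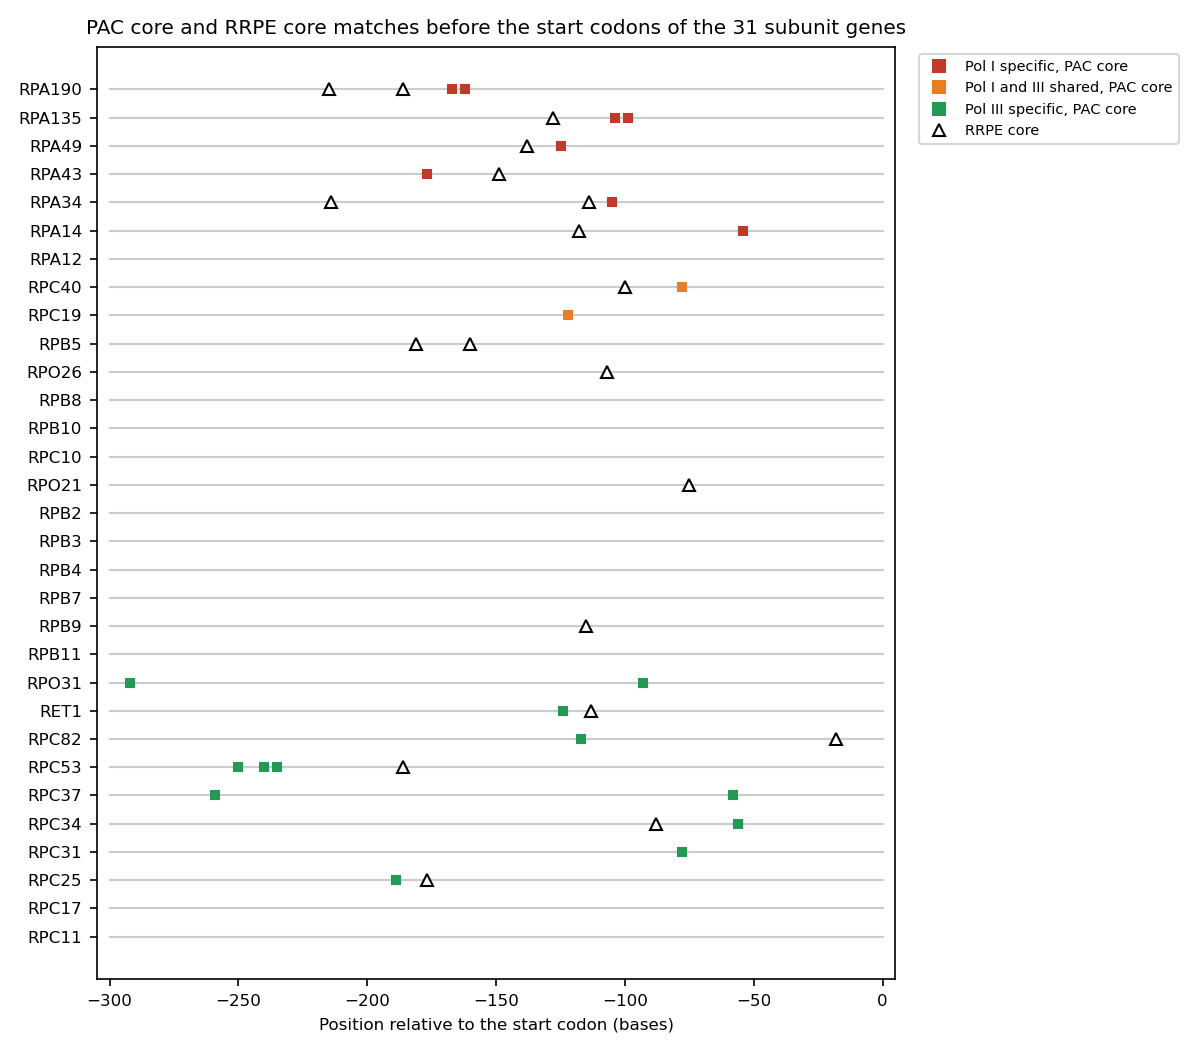
Positions of PAC core matches (filled squares, coloured by enzyme) and RRPE core matches (open triangles) in the 300 bases before the start codon of each of the 31 genes; the x axis is the distance from the start codon in bases. PAC cores stand in the rows of polymerase I, of the 2 subunits shared by I and III and of polymerase III, and in none of the 7 rows of polymerase II or the 5 rows of subunits shared by all 3.

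The first comparison took the no-phosphate libraries relative to the high-phosphate one, to see which subunits already stood apart at the earliest times. At 15 min, 26 of the 31 members were lower than in high phosphate, against 46.8% of the 5100 genes listed in both libraries. All 7 genes of polymerase I alone were lower, with a median log2 ratio of -0.55, as were both genes shared by I and III, all 5 shared by all 3 enzymes and 9 of 10 genes of polymerase III alone (median -0.50). Of the genes of polymerase II alone 3 of 7 were lower, with a median of 0.03, and the median of all genes was 0.03. The baseline is 1 library, so this comparison has no test. Cells were washed and moved on the way to the medium without phosphate, so the transfer and the loss of phosphate cannot be told apart here.

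Across 15 to 60 min, all 4 libraries lay below high phosphate for 22 of the 31 members, against 25.9% of 4737 genes. These were all 7 genes of polymerase I, both shared by I and III, all 5 shared by all 3, 7 of 10 of polymerase III and 1 of 7 of polymerase II. The 1 of polymerase II was RPO21, its largest subunit, at 5.28, 5.18, 4.76 and 5.12 log2 RPM without phosphate and 5.62 in high phosphate. RPA135, the second largest subunit of polymerase I, was at 7.59, 7.37, 6.85 and 7.10 at 15, 30, 45 and 60 min, against 8.25 in high phosphate. At -1.03 ± 0.32 (SD, n = 4) it was the 1 member whose mean lay at least 2-fold below high phosphate with all 4 libraries on that side, a call that 0.528% of genes met. RPB2, the counterpart of RPA135 in polymerase II, was at 7.10, 7.08, 7.29 and 7.02, against 7.11 in high phosphate, and its range spans the high-phosphate value. RET1, the counterpart in polymerase III, was at 6.44, 6.30, 5.80 and 6.27, against 6.96, and its mean log2 ratio of -0.76 ± 0.28 stood between the other 2 (SD, n = 4). The high-phosphate library was the highest of all 25 for 14 of the 27 members listed throughout, against 11.6% of 3109 genes. These comprised all 6 such genes of polymerase I, both shared by I and III, 2 of 5 shared by all 3, 4 of 8 of polymerase III and 0 of 6 of polymerase II.

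Over all no-phosphate libraries, the genes of polymerase II differed in where they lay relative to high phosphate. RPO21 ran from 4.22 to 6.02 log2 RPM with a median of 5.12, and stood at 5.62 in high phosphate. At 315 to 360 min its mean log2 ratio to high phosphate was -0.70 ± 0.51 (SD, n = 4), with all 4 libraries below. RPB3, which forms the platform with RPB11, ran from 7.32 to 8.19 log2 RPM with a median of 7.60, and stood at 7.47 in high phosphate. RPB11 ran from 6.89 to 7.65 (median 7.29, 7.04 in high phosphate) and RPB9, the zinc-ribbon subunit, from 7.15 to 7.86 (median 7.61, 7.40 in high phosphate). RPB7 ran from 5.20 to 6.40 with a median of 5.75 and stood at 6.22 in high phosphate. RPB4 ran from 7.66 to 8.68 (median 7.91, 7.81 in high phosphate) and RPB2 from 6.66 to 7.34 (median 7.08, 7.11 in high phosphate). The medians of RPO21, RPB7 and, narrowly, RPB2 thus lay below high phosphate and those of RPB3, RPB4, RPB9 and RPB11 above it.

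Of polymerase III, RPO31 ran from 5.15 to 6.62 log2 RPM without phosphate (median 5.99) against 6.69 in high phosphate, RET1 from 4.40 to 6.55 (median 5.98) against 6.96, and RPC31 from 6.20 to 7.29 (median 6.78) against 7.50. RPC34 ran from 5.47 to 6.67 (median 6.19) against 6.73 in high phosphate, RPC53 from 5.08 to 6.54 (median 6.00) against 6.73, and RPC11, the zinc-ribbon subunit, from 5.07 to 6.37 (median 5.92) against 6.72. Every starved library that listed these 6 genes lay below high phosphate. RPC82 ran from 4.83 to 6.30 (median 5.80) against 6.13, and RPC17, the smaller stalk protein, from 4.90 to 7.50 (median 5.59) against 5.72. RPC37, the partner of RPC53, ran from 5.83 to 6.85 (median 6.19) against 6.37, and RPC25 from 6.31 to 7.41 (median 6.88) against 6.80. These 4 genes had libraries on either side of high phosphate.

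**Figure D2:**
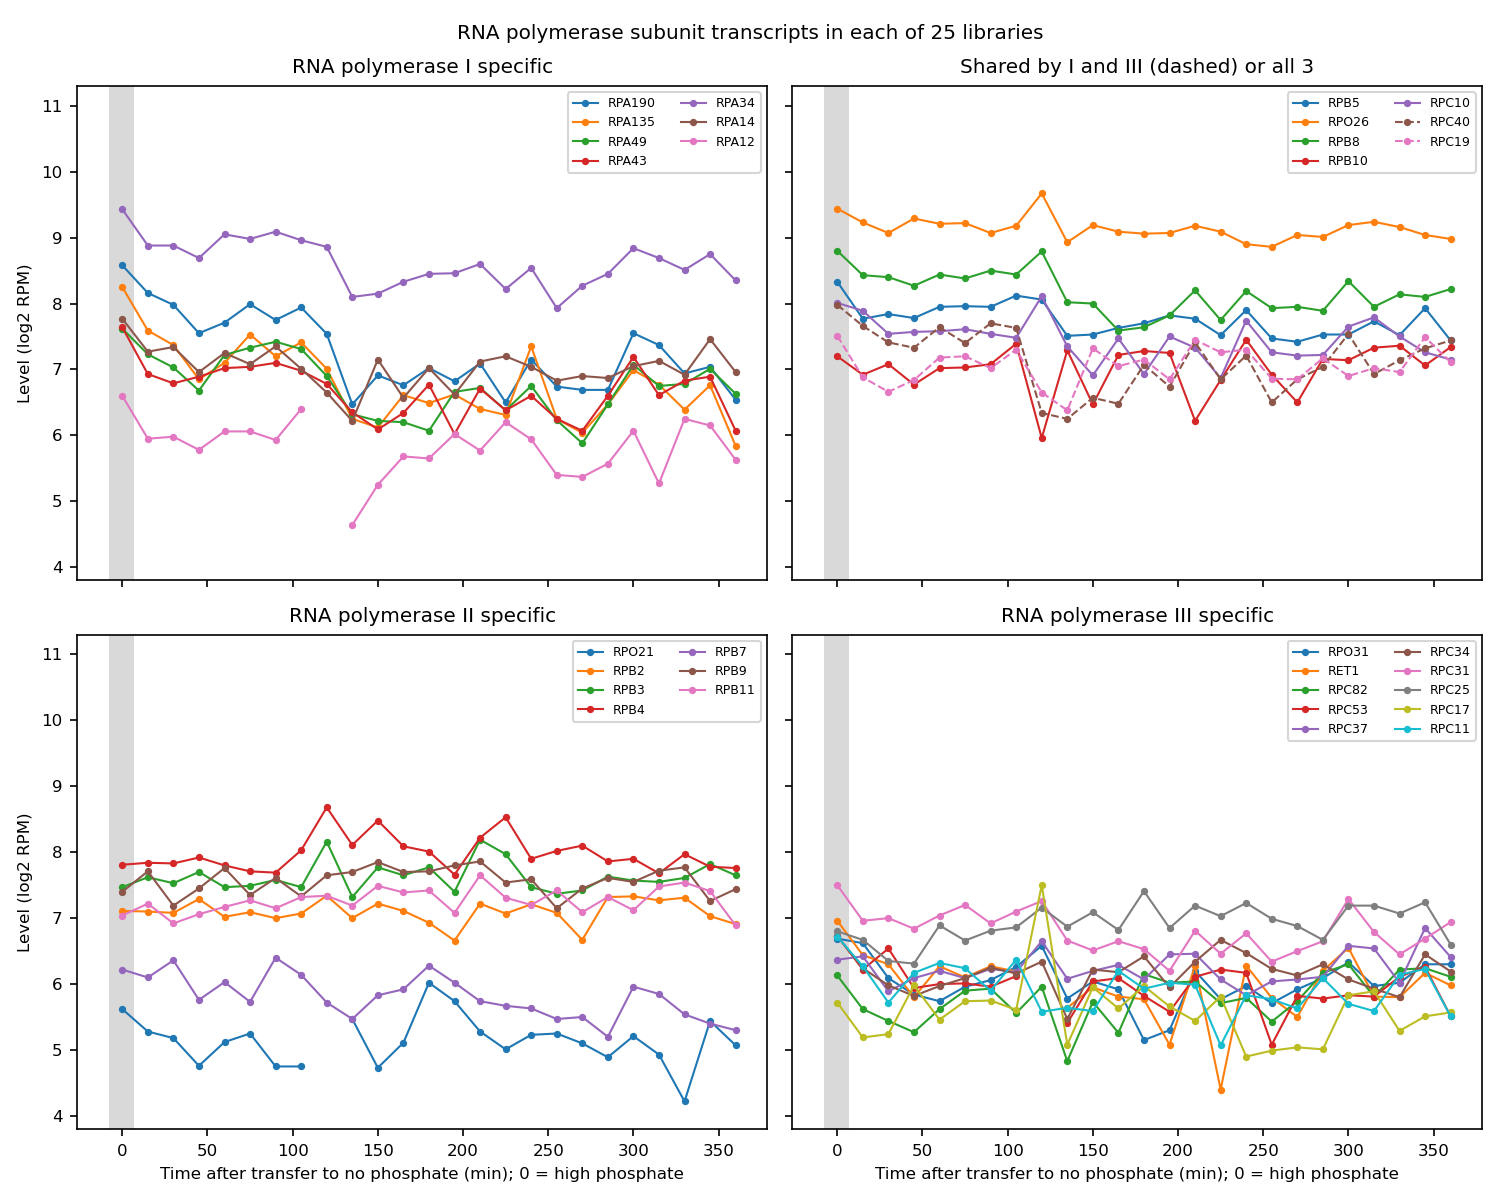
Level (log2 RPM) of each of the 31 subunit transcripts in each of the 25 libraries by time after transfer (min), with the high-phosphate library at 0 shaded, in panels by enzyme; a gap marks a library in which the gene was not listed. Of the 7 genes of polymerase I, 6 fell between the windows of 75 to 120 and 135 to 180 min (RPA14 did not pass), while those of polymerase II, other than RPO21 and RPB7, stay between 6.66 and 8.68.

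Members at least 2-fold below high phosphate numbered 1 of 31 at 15 to 60 min, 0 of 27 compared at 75 to 120 min (0.402% of genes) and 9 of 31 at 135 to 180 min (6.85% of genes). They numbered 4 at 195 to 240 min (6.10%), 7 at 255 to 300 min (6.19%) and 4 at 315 to 360 min (6.18%). None of the members was 2-fold higher in any window, against 2.47%, 4.79%, 13.9%, 18.9%, 19.1% and 21.9% of genes in the 6 windows in turn. With no limit on size, all 4 libraries lay below high phosphate for 15 of 27 members at 75 to 120 min (20.6% of genes), 20 of 31 at 135 to 180 min (18.4%), 21 at 195 to 240 min (17.0%), 22 at 255 to 300 min (19.8%) and 21 at 315 to 360 min (19.8%). At 135 to 180 min the 9 were all 7 genes of polymerase I, RPC40, the larger of the 2 platform subunits shared by I and III, and RET1. RPA190 and RPA135 stood furthest below, at -1.79 ± 0.24 and -1.88 ± 0.22 (SD, n = 4). RPA190, RPA135 and RPA43 were the 3 members below 2-fold in each of the last 4 windows, and at 315 to 360 min they stood at -1.61 ± 0.34, -1.81 ± 0.44 and -1.04 ± 0.37 (SD, n = 4).

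The main step of the course, between 75 to 120 and 135 to 180 min, was tested with limma over all 4535 genes that had at least 3 values in each window. In this step 11 of the 31 members fell (adjusted p under 0.05), where 6.77% of all genes fell, and 0 rose, where 19.8% of all genes rose. At an unadjusted p under 0.05 the counts were 12 and 0. By enzyme, 6 of 7 genes of polymerase I alone fell (median change -0.83), 1 of 2 shared by I and III (-0.37), 3 of 5 shared by all 3 (-0.43), 1 of 10 of polymerase III alone (-0.27) and 0 of 7 of polymerase II alone (0.10). The median of all genes tested was 0.20. Whether the enzymes differed was asked with the counterpart subunits further on.

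RPA190 was at 6.47, 6.91, 6.76 and 7.02 log2 RPM at 135, 150, 165 and 180 min, against 7.99, 7.75, 7.94 and 7.54 at 75, 90, 105 and 120 min. The windows did not overlap, and the change was -1.02 (SE 0.20, limma adjusted p = 0.000188). RPA190 was also the 1 member whose early and late levels lay far enough apart, by 1 log2 unit, to time: its running median of 3 libraries crossed the middle at 123 min, or at 117 to 126 min with any 1 library left out. RPA135 was at 6.25, 6.12, 6.61 and 6.49 in the later window, against 7.53, 7.20, 7.41 and 7.01 in the earlier one, also with no overlap, a change of -0.92 (SE 0.23, limma adjusted p = 0.00258).

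RPA49 and RPA34 form a pair that binds the core of polymerase I and aids initiation and elongation. RPA49 was at 6.32, 6.22, 6.20 and 6.07, against 7.33, 7.42, 7.31 and 6.90, and its change of -1.04 (SE 0.19, limma adjusted p = 7.83e-05) was the lowest among the members. RPA34, the most abundant transcript of polymerase I per base of gene, was at 8.10, 8.15, 8.33 and 8.45, against 8.98, 9.09, 8.96 and 8.86, a change of -0.71 (SE 0.15, limma adjusted p = 0.000518). Neither gene's windows overlapped.

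RPA43 and RPA14 make the stalk of polymerase I, and RPA43 is the subunit that the initiation factor Rrn3 contacts. RPA43 was at 6.35, 6.09, 6.34 and 6.77, against 7.04, 7.10, 6.98 and 6.78, windows that nearly met, and it fell by 0.59 on the log2 scale (SE 0.20, limma adjusted p = 0.0320). RPA14 was at 6.22, 7.15, 6.57 and 7.02, against 7.08, 7.35, 7.01 and 6.65, and its change of -0.28 (SE 0.18) missed the threshold (limma adjusted p = 0.267). RPA14 overlaps the reading frame YDR157W, and with the use of strand not given, reads of the overlap cannot be assigned. RPA12, the zinc-ribbon subunit needed for RNA cleavage, was at 4.64, 5.25, 5.68 and 5.65, against 6.06, 5.93 and 6.40 with no value at 120 min, a change of -0.83 (SE 0.25, limma adjusted p = 0.0128). The lowest of these values rests on 14 reads.

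RPC40 and RPC19, which form the platform on which polymerases I and III assemble, did not give the same call. RPC40 was at 6.25, 6.57, 6.48 and 7.07, against 7.40, 7.70, 7.63 and 6.34, and it fell by 0.67 (SE 0.24, limma adjusted p = 0.0342). Its 6.34 at 120 min stood with the later window but rests on 17 reads of the shallow library. RPC19 was at 6.38, 7.32, 7.05 and 7.15, against 7.20, 7.02, 7.30 and 6.65, a change of -0.07 (SE 0.18) that missed the threshold (limma adjusted p = 0.820). The difference between the 2 genes was not tested.

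Of the subunits common to all 3 enzymes, RPB8 was at 8.02, 8.0, 7.59 and 7.64, against 8.38, 8.50, 8.44 and 8.79, and it fell by 0.72 (SE 0.14, limma adjusted p = 0.000243). RPB5 was at 7.51, 7.53, 7.63 and 7.70, against 7.96, 7.95, 8.12 and 8.06, a fall of 0.43 (SE 0.13, limma adjusted p = 0.010). For both genes every later library lay below every earlier one. RPC10, the small zinc-binding subunit also known as Rpb12, fell by 0.52 (SE 0.18, limma adjusted p = 0.0312), with 7.35, 6.91, 7.47 and 6.93 against 7.61, 7.54, 7.48 and 8.11. RPO26, known as Rpb6, had a change of -0.22 (SE 0.13) and RPB10 one of 0.20 (SE 0.25), and neither passed the test.

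Of the polymerase III genes RPC31 alone passed the test in this step, a subunit of the trimer with RPC82 and RPC34 that acts in initiation. It was at 6.66, 6.51, 6.65 and 6.53, against 7.20, 6.92, 7.10 and 7.26, with no overlap, a change of -0.53 (SE 0.17, limma adjusted p = 0.0219). RPO31, the largest subunit, was at 5.78, 6.04, 5.92 and 5.15, against 5.96, 6.06, 6.26 and 6.58, and its change of -0.49 (SE 0.22) missed the threshold after adjustment (limma adjusted p = 0.0987). The other 8 genes had changes of -0.49 for RPC17 to 0.17 for RPC25. In polymerase II the changes ran from -0.12 for RPB7, the larger stalk protein, to 0.41 for RPO21, whose 75 to 120 min mean rests on 3 values of 4.75 to 5.25 log2 RPM. RPB4, the smaller stalk protein, was at 8.11, 8.48, 8.09 and 8.01, against 7.71, 7.69, 8.03 and 8.68, and its windows overlapped.

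**Figure D3:**
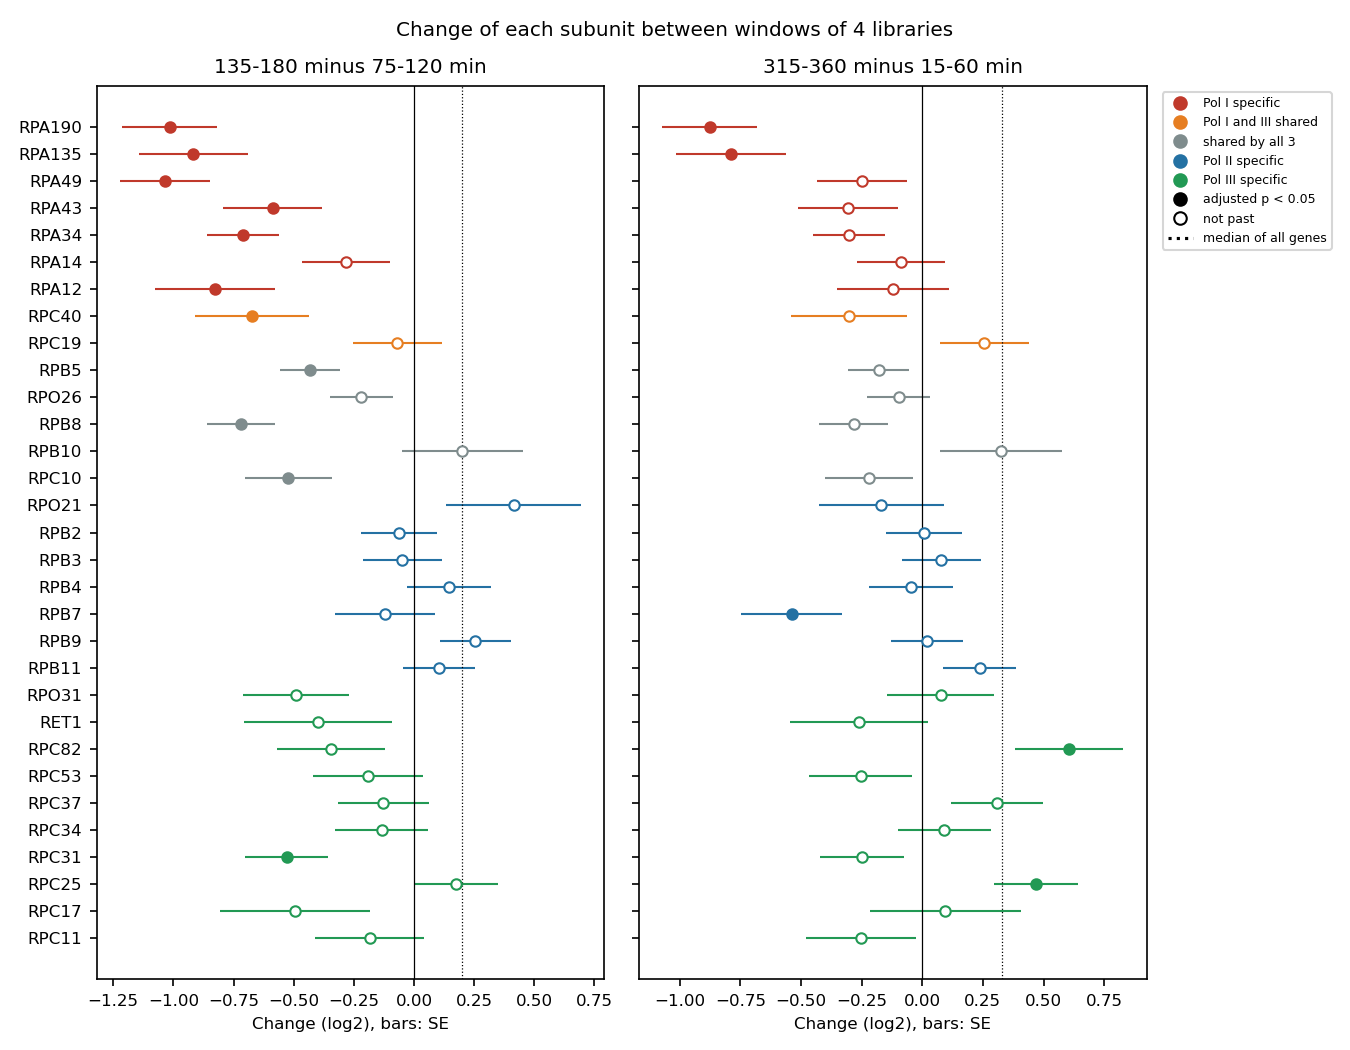
Change (log2) of each subunit with its standard error in 135 to 180 minus 75 to 120 min (left) and 315 to 360 minus 15 to 60 min (right), by enzyme; filled points passed the limma test, open points did not, and the dotted line is the median of all genes (0.20 left, 0.33 right). On the left the 11 filled points all lie below 0 and none is of polymerase II; on the right 3 lie below 0 and 2 above.

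Calls in this step were sensitive to single libraries for 5 of the 11. RPA43 missed the threshold without any 1 of the libraries at 75, 90, 105, 135, 150 or 165 min (-0.59 to -0.49, limma adjusted p of 0.0587 to 0.11), and RPC40 likewise (-0.67 to -0.53, limma adjusted p of 0.0723 to 0.133). RPA12 missed it without 105 or 135 min (-0.69 and -0.60), RPC10 without 120, 150 or 180 min (-0.38, -0.44 and -0.44) and RPC31 without 75 or 150 min (-0.50 each). Without the 150 min library 7 members fell, where 268 of 4552 genes fell. Other window limits gave 8 that fell, where 328 of 4441 genes fell. RPA12, RPC10 and RPB5 then missed the threshold (-0.33, -0.25 and -0.27). With each library centred on its median gene 13 of the 31 fell, adding RPO26 and RPO31 (11.6% of all genes), and 0 rose (8.14%).

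Over the whole starved course, 315 to 360 against 15 to 60 min, 3 of the 31 members fell, where 10.0% of all 4535 genes fell, and 2 rose, where 37.8% of all genes rose. RPA190 was at 7.37, 6.94, 7.04 and 6.54 in the last window, against 8.16, 7.98, 7.55 and 7.71 in the first, with no overlap and a change of -0.88 (SE 0.20, limma adjusted p = 0.000389). RPA135 was at 6.77, 6.39, 6.76 and 5.84, against 7.59, 7.37, 6.85 and 7.10, also with no overlap, a change of -0.79 (SE 0.23, limma adjusted p = 0.00444). The third was RPB7, at 5.85, 5.54, 5.40 and 5.30, against 6.10, 6.36, 5.76 and 6.03, windows that overlapped, with a change of -0.54 (SE 0.21, limma adjusted p = 0.0330). The other 5 genes of polymerase I had changes of -0.31 to -0.09 and did not pass.

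The 2 that rose belong to polymerase III. RPC82 was at 5.81, 6.22, 6.24 and 6.11, against 5.62, 5.44, 5.27 and 5.62, with no overlap, a change of 0.61 (SE 0.22, limma adjusted p = 0.0257). RPC25, the larger stalk protein, was at 7.19, 7.07, 7.24 and 6.60, against 6.67, 6.35, 6.31 and 6.89, windows that overlapped, a change of 0.47 (SE 0.17, limma adjusted p = 0.0258). The median of all genes shifted by 0.33 in this contrast, and after centring on the median gene neither passed (RPC82 0.25, RPC25 0.11), while 16 members fell (21.5% of all genes) and 0 rose (19.3%). Those 16 were 6 of polymerase I, 4 shared by all 3, 3 of polymerase III, 2 of polymerase II and RPC40.

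Some of these calls rested on single libraries. RPB7 did not pass without 15, 30, 60, 330, 345 or 360 min (-0.55 to -0.44). RPC82 did not pass without 30, 45, 330 or 345 min (0.53 to 0.59), and RPC25 without 30, 45, 315, 330 or 345 min (0.39 to 0.45). Without any 1 of 30, 45, 330 or 345 min 0 members rose, without 315 min 1 did and without 360 min 3 did. In these settings 1522 to 1606 of the 4536 to 4576 genes tested rose. RPA190 and RPA135 passed with any 1 of the libraries of these windows left out.

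No member passed the limma test between 75 to 120 and 15 to 60 min, where 0.309% of all genes fell and 0.397% rose, and 1 member was higher at an unadjusted p under 0.05. None passed between 195 to 240 and 135 to 180 min (0.684% fell and 0.198% rose), where 2 were higher at an unadjusted p under 0.05. None passed between 255 to 300 and 195 to 240 min (0.0662% and 0.0882%), with 1 lower unadjusted, or between 315 to 360 and 255 to 300 min (0.0221% and 0.0662%), with 0 unadjusted.

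**Figure D4:**
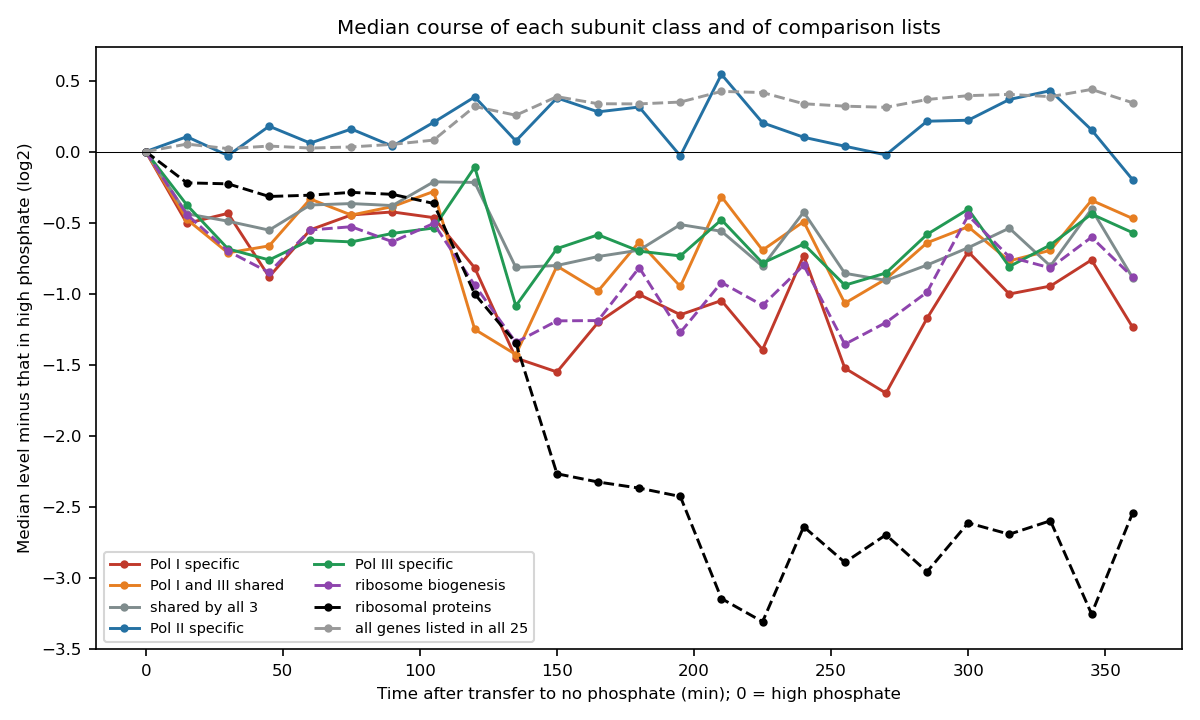
Median level of each class of subunits minus the median of that class in the high-phosphate library (log2) by time (min). Each median takes all genes of the class that were listed in the library, so a gene not listed there drops out. Ribosome biogenesis genes, ribosomal protein genes and all genes are drawn for comparison (dashed), each cut to the genes listed in all 25 libraries. The median of polymerase I lies at -0.47 at 105 min and -1.45 at 135 min, near ribosome biogenesis (-0.51 and -1.34), whereas ribosomal proteins go on to -3.15 at 210 min and polymerase II stays between -0.20 and 0.54.

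Whether counterpart subunits of the 3 enzymes changed unequally was tested directly, as the log2 difference between 2 counterparts within each library, by an exact permutation test (two-sided, 17 pairs per contrast, smallest p possible 0.0286). Between 135 to 180 and 75 to 120 min, no pair passed after adjustment over the 17 (smallest adjusted p = 0.0971, exact permutation), and 5 had an unadjusted p under 0.05. The differences of polymerase I minus II moved down in 5 of 5 pairs, and in 3 of the 5 the windows did not overlap. RPA190 stood 1.46 ± 0.57 above RPO21 in the later window (SD, n = 4), against 2.98 ± 0.22 in the earlier one (SD, n = 3), a move of -1.52 (exact permutation p = 0.0571, adjusted 0.121). RPA135 stood at -0.69 ± 0.30 relative to RPB2, against 0.16 ± 0.35 (SD, n = 4 each), a move of -0.86 (exact permutation p = 0.0286, adjusted 0.0971).

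For the zinc-ribbon subunits, RPA12 minus RPB9 was -2.44 ± 0.50, against -1.30 ± 0.38 (SD, n = 4 and 3), a move of -1.14 (exact permutation p = 0.0286, adjusted 0.0971). RPA43 moved by -0.47 relative to RPB7 and RPA14 by -0.43 relative to RPB4, both with overlapping windows. The differences of polymerase I minus III moved down in 4 of 5 pairs, 3 without overlap: RPA135 against RET1 by -0.61, RPA43 against RPC25 by -0.76 and RPA12 against RPC11 by -0.50. Those of III minus II moved down in 4 of 5 pairs, 1 without overlap, RET1 against RPB2, by -0.41.

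Between 315 to 360 and 15 to 60 min no pair passed either (smallest adjusted p = 0.139, exact permutation), with 3 at an unadjusted p under 0.05. These 3, whose windows did not overlap, were RPA190 minus RPO31 (0.82 ± 0.48 against 1.78 ± 0.20, a move of -0.95), RPA43 minus RPC25 (-0.42 ± 0.16 against 0.35 ± 0.20, -0.77) and RPC25 minus RPB7 (1.5 ± 0.25 against 0.49 ± 0.37, 1.01; SD, n = 4 each). A p that misses the threshold in so small a design does not show that counterparts moved alike.

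**Figure D5:**
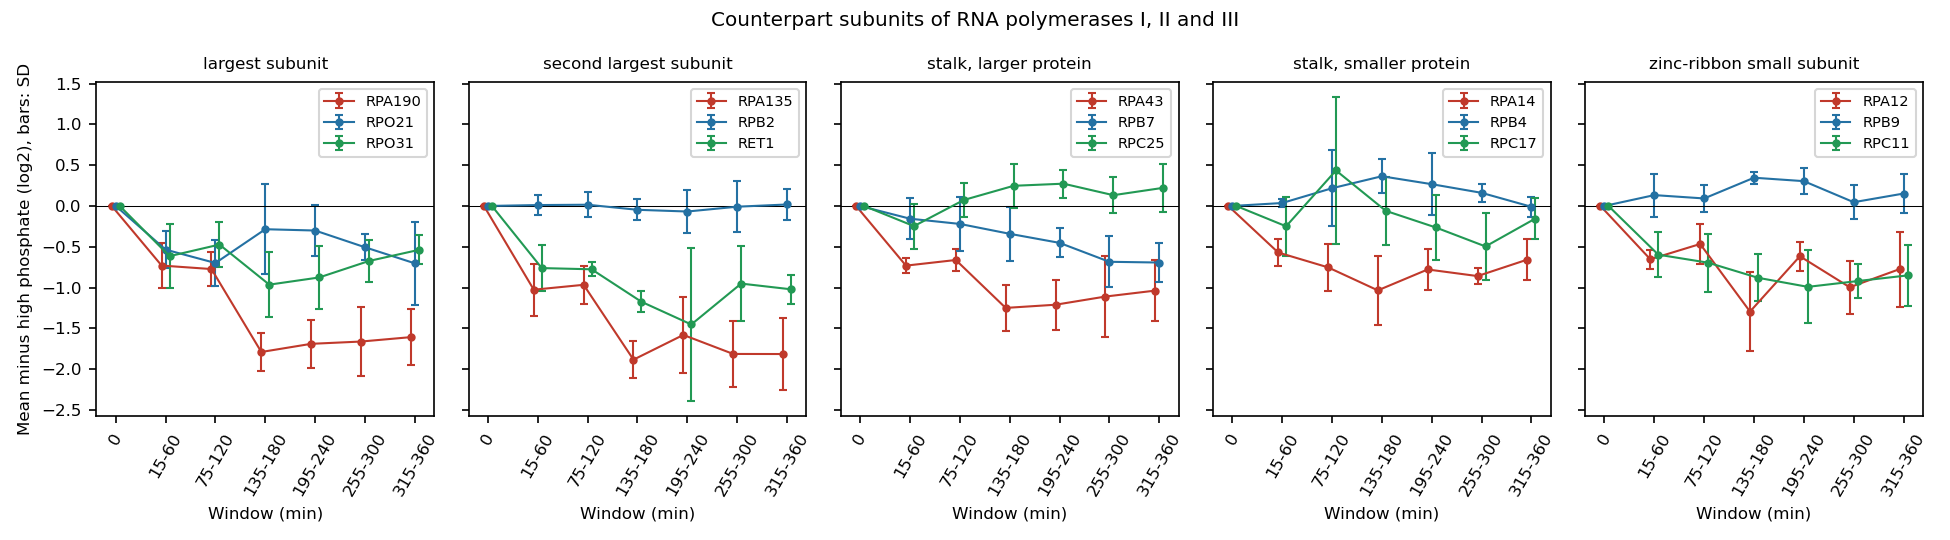
Mean level of each counterpart subunit minus its level in high phosphate (log2, y axis) by window (min, x axis; 0 is high phosphate), with the SD over the libraries of the window, for polymerase I (red), II (blue) and III (green). In the largest and the second largest subunit the red points end furthest below 0, at -1.61 and -1.81, while RPB2 stays near 0.

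Members with and without the PAC core differed in their medians, given here with no test. In 135 to 180 against 75 to 120 min the 16 members with it had a median change of -0.44 and 7 of them fell, against -0.12 and 4 of 15 without it. Of all genes, 6.77% fell in this step. For 15 to 60 min relative to high phosphate the medians were -0.60 with it and -0.25 without it, and in 315 to 360 against 15 to 60 min they were -0.25 with it and -0.10 without it. For the core preceded by GC, present for 7 of the 31 members and 243 of the 6001 genes (4.05%), the split was different. In 135 to 180 against 75 to 120 min the medians were -0.34 with it (3 of 7 fell) and -0.25 without it (8 of 24 fell). In 315 to 360 against 15 to 60 min they stood in the opposite order, at 0.26 with it (0 of 7 fell) and -0.14 without it (3 of 24 fell), where 10.0% of all genes fell. The presence of the shorter core goes with the enzyme, since no gene of polymerase II or shared by all 3 holds it. Within polymerase I, RPA12 fell without the core and RPA14, which has it, did not pass the test.

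Other genes of these pathways were counted from lists for comparison. Of 60 ribosome biogenesis genes tested, 25 fell and 0 rose in 135 to 180 against 75 to 120 min (median -0.50), and of 136 ribosomal protein genes 135 fell (median -1.64), where 6.77% of all genes fell and 19.8% rose. After centring 45 of the 60 fell. Of 8 tested initiation and other factors of polymerase I, 0 fell and 0 rose in that step (median -0.23; 1 fell after centring), and RRN3, which bridges RPA43 to the promoter factors, had a change of -0.43 (SE 0.20, limma adjusted p = 0.120). Of 10 factors of polymerase III, 1 rose, MAF1, the repressor that binds the enzyme in starved cells, by 1.19 (SE 0.17, limma adjusted p = 1.60e-06). In 315 to 360 against 15 to 60 min MAF1 averaged 7.39 ± 0.16 and 5.48 ± 0.21 log2 RPM (SD, n = 4 each). This was a rise of 1.91 (SE 0.17, limma adjusted p = 2.14e-11). Of the 10 factors of polymerase III, 4 rose there (2 after centring) and 0 fell, where 37.8% of all genes rose. Of the 8 factors of polymerase I, 2 rose and 0 fell (median 0.23), with 0 and 1 after centring. Of the 60 ribosome biogenesis genes 3 rose and 7 fell (median -0.07), with 1 and 23 after centring. Of all genes 10.0% fell, and after centring 19.3% rose and 21.5% fell.

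Of 5 tested regulators of ribosome biogenesis genes, 4 rose and 0 fell in the same contrast, where 37.8% of all genes rose, and 1 rose after centring. STB3, which binds RRPE, averaged 6.67 ± 0.31 and 4.82 ± 0.49 in the 2 windows and rose by 1.85 (SE 0.25, limma adjusted p = 1.90e-07). DOT6, a repressor that binds PAC, averaged 7.35 ± 0.23 and 6.60 ± 0.19 and rose by 0.75 (SE 0.17, limma adjusted p = 0.000606; 0.39 after centring, which did not pass). FHL1, a forkhead factor of ribosomal protein genes, averaged 4.74 ± 0.48 and 3.65 ± 0.49 and rose by 1.08 (SE 0.30, limma adjusted p = 0.00321; 0.72 after centring, which did not pass). TOD6, the relative of DOT6, and SFP1, an activator, had too few values to be tested. HMO1, a high-mobility-group protein of the rRNA gene, had a change of -0.19 (SE 0.12, limma adjusted p = 0.196), and fell by 0.55 after centring. Around polymerase II, 6 of 19 general factors, 3 of 13 elongation factors, 4 of 17 Mediator subunits and 3 of 6 assembly and import factors rose and 0 fell in that contrast, where 37.8% of all genes rose. After centring 1 of the general factors, 0 elongation factors, 2 Mediator subunits and 0 assembly and import factors rose, and 1, 4, 2 and 1 fell.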

How the data were processed

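Per the labels' protocols, cells were grown in high phosphate, washed and moved to medium without it, and total RNA was extracted in plates and sequenced as cDNA. Per the submitters' processing notes, Bowtie and genome build R64 were used; the version of Bowtie, the counting of reads and the use of strand were not given in the sources used here. The deposited values are log2 values that the authors made for each sample, which sum to 1000000 on the linear scale, and a gene under the floor, taken as 10 reads, has none. Of 6701 lines 51 carry no gene name and were left out. Reads recovered from the values (95.97% of those below 400 units whole within 0.01) give depth and counting noise only (SD 0.46 log2 units at the floor, counting error only).

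The members, lists, windows and tests were chosen with earlier results of these data known. limma 3.58.1 in R 4.3.3 (lmFit, eBayes with trend and robust, no pseudocount) was fitted to the 24 no-phosphate libraries as 6 windows over the 4535 genes with at least 3 values in each, and p-values were adjusted by Benjamini-Hochberg over all of them, two-sided, at 0.05. The fit was tested on simulated data for 315 to 360 against 15 to 60 min. It called 22 of 50 changes of 0.5 log2 units and 48 of 49 changes of 1 log2 unit, so the smaller changes were often missed. The simulated libraries had independent noise, no shift of the median gene and fewer changed genes than the data. These shares therefore need not hold for the data. Against the 1 high-phosphate library a gene counted when the window's mean lay at least 1 log2 unit away with all 4 libraries on that side. Besides the markers, named genes were all members and, of other lists, 7 regulators and FHL1, which was among the largest rises in its list. Other large changes in these lists were counted but not named. Coordinates and the 300 bases before each start codon come from the RefSeq genome and annotation of R64, in which all 31 members matched. Alternatives centred or rescaled the libraries, used pseudocounts of 10 and 50 RPM, other windows, weights and filters, and left out each library.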

Additional observations from a re-analysis of the deposited data

Results flagged for a closer look

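Each member was examined in each of the 6 windows for a library far from the other 3, and 14 of 182 such groups of 4 had one. Chance flags about 1 in 20 groups. Of the 14, 5 were high at 300 min. These were RPA190 at 7.55 log2 RPM (the other 3 at 6.69 to 6.74), RPB8 at 8.34 (7.89 to 7.95), RPC10 at 7.65 (7.21 to 7.26), RPC37, which pairs with RPC53 in polymerase III, at 6.58 (6.04 to 6.11) and RPC17, its smaller stalk protein, at 5.83 (4.99 to 5.04).

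The shallow 120 min library was high for RPB3, a platform subunit of polymerase II, at 8.16 (7.47 to 7.58), and for RPC17 at 7.50 (5.61 to 5.75), a value that rests on 38 reads.

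The other 7 were spread over times. RPC19 stood at 7.17 at 285 min (6.85 to 6.90), RPC53 at 5.08 at 255 min (5.78 to 5.83), RPB10 at 6.47 at 150 min (7.22 to 7.29) and at 7.06 at 345 min (7.33 to 7.36). RPC10 stood at 7.89 at 15 min (7.54 to 7.58), RPB9, the zinc-ribbon subunit of polymerase II, at 7.85 at 150 min (7.70 to 7.71) and RPC82 at 5.56 at 105 min (5.90 to 5.96). What set these libraries apart was not tested.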

How the results depend on the processing

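Members that fell in 315 to 360 against 15 to 60 min numbered 3 as reported, 16 with each library centred on its median gene, 18 with libraries rescaled without ribosomal protein genes, 5 with only the 8 libraries compared, 5 with library weights and 7 with other window limits. Those that rose numbered 2 as reported, 0 centred, 0 rescaled and 1 with log2(RPM + 10). Leaving out each library gave 2 to 3 that fell and 0 to 3 that rose. Of all 4535 genes 454 fell as reported, 973 centred, 1062 rescaled and 549 with library weights. With only the 8 libraries 528 of 4793 genes fell, and with other window limits 506 of 4540. Of the 4535 genes 1713 rose as reported, 873 centred, 794 rescaled and 1244 with log2(RPM + 10). With each library left out, 399 to 446 genes fell and 1522 to 1606 rose. In the same contrast the class medians were, centred and rescaled, -0.66 and -0.70 for polymerase I, -0.54 and -0.58 for subunits shared by all 3, -0.35 and -0.39 for II and -0.27 and -0.31 for III. Rescaling, which shifts all genes of a library alike, moved 10 members from above to below 0, as did centring; among them RPB2 (-0.39) and RPB9 (-0.38), near 0 as reported, passed the threshold when rescaled.

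In 135 to 180 against 75 to 120 min, 11 members fell as reported, 7 with only the 8 libraries compared and 8 with other window limits. With each library left out 7 to 10 fell. RPB5 missed the threshold with only the 8 libraries and with other window limits (limma adjusted p = 0.0528 and 0.116). Among all genes 307 of 4535 fell as reported, 238 of 4730 with only the 8 libraries and 328 of 4441 with other window limits. With each library left out 258 to 364 genes fell. With library weights 1 member rose, where 1729 of 4535 genes rose. The class medians, centred and rescaled, were -1.10 and -1.14 for polymerase I, -0.64 and -0.73 for subunits shared by all 3, -0.11 and -0.19 for II and -0.51 and -0.57 for III. With other window limits they were -0.58 for polymerase I, -0.25 for subunits shared by all 3, 0.19 for II and -0.04 for III. With log2(RPM + 50) the median was -0.35 for subunits shared by all 3 and -0.09 for III, and -0.14 for III with log2(RPM + 10). Leaving out each library gave -0.95 to -0.66 for polymerase I, -0.46 to -0.38 for subunits shared by all 3, 0.03 to 0.17 for II and -0.34 to -0.12 for III; in the late contrast it gave -0.36 to -0.19, -0.20 to -0.11, -0.05 to 0.05 and 0.00 to 0.15. RPA12 changed sign with log2(RPM + 10), at 0.07, where its missing 120 min value counts as 0.

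Members at least 2-fold below high phosphate in the 6 windows in turn numbered 1, 1, 16, 14, 17 and 17 centred, and 0, 0, 4, 1, 2 and 2 with the 15 min library as baseline. The share of all genes was not counted under these settings, so whether the counts depart from it is not known. No pair of counterparts passed with any library left out. With 17 pairs and a smallest p possible of 0.0286 or more, only many pairs at that limit together could pass, so this says little. The causes were not tested, other than those given by construction. No paired analysis was possible because the labels carry no replicate numbers and each time has 1 library. Depth limits members with under 20 reads, RPO21 and RPC11 having as few as 10.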

Other observations

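No member passed the limma test between neighbouring windows after 135 to 180 min, and single libraries varied. Minus its value in high phosphate, the median level of all genes of polymerase I alone at 240, 255, 270, 285 and 300 min was -0.73, -1.53, -1.70, -1.17 and -0.71. The ribosome biogenesis genes listed in all 25 libraries stood at -0.80, -1.36, -1.20, -0.99 and -0.45 at the same times. The genes of polymerase II alone stood at 0.10, 0.04, -0.02, 0.21 and 0.22. RPA135 was at 7.35 log2 RPM at 240 min and at 6.25, 6.04, 6.47 and 6.99 at 255, 270, 285 and 300 min. RPA49 was at 6.75 and then 6.23, 5.88, 6.47 and 7.07. With 1 library per time these moves have no test, and whether they lie in the cells or the libraries was not tested.

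Levels per kilobase of gene in high phosphate ran from 9.44 RPM for RPO21 to 1275 RPM for RPO26. The largest subunits stood at 76.5 RPM per kilobase for RPA190 and 23.5 for RPO31, and the second largest at 84.5 for RPA135, 37.6 for RPB2 and 36.2 for RET1. Whether reads cover whole transcripts is not given in the sources used here, and this bears on such comparisons between genes of unlike length.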
